A study of Homo sapiens with 12 samples.

Results

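The mRNAs of 10 immediate early and feedback genes were followed across the 12 RNA-sequencing libraries of the series: the zinc finger factors *EGR1* and *EGR3*, the AP-1 subunits *FOS*, *FOSB*, *FOSL1*, *JUN* and *JUNB*, the early response gene *IER2*, and the MAP kinase phosphatases *DUSP1* and *DUSP6*. These 10 of the 58302 gene rows in the count table were chosen by name, with the rise of *EGR1* after ML355 already known from the counts of these same libraries. Each symbol matched a single Ensembl row, and all 10 were among the 17849 genes that passed the filter on low counts. Because the choice rested on the ML355 and DMSO libraries of the OV-L1-FGGY cells, every comparison that uses those DMSO libraries is given here as a description. The members were tested only between the libraries labelled NVR and the control cells. Earlier results of these data were known when the genes were chosen, so this test may not be wholly free of the choice.

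The study gives H520, an established line of human lung squamous cell carcinoma, as the source of the cells. Lineage markers differed between the groups, as given below, and the identity of the cells was not tested. L1-FGGY is a chimeric transcript that joins a LINE-1 retrotransposon to *FGGY*, a carbohydrate kinase gene. There were 4 groups of 3 libraries: control cells with DMSO (CTRL_DMSO, OV-CTRL), L1-FGGY-overexpressing cells with DMSO (L1_F_DMSO, OV-L1-FGGY), the same cells with 10 μM ML355, an inhibitor of 12-lipoxygenase (L1_F_ML355), and libraries labelled as the same cells with 450 μM NVR, a reverse transcriptase inhibitor (L1_F_NVR). The inhibitor was added by a change of medium 5 h after seeding, and control cells received the same volume of DMSO (0.2%). How long the cells were then exposed is not given in the sources used here, and the labels do not say whether the 3 libraries of a group came from separate cultures, so p-values measure the spread between these libraries, which may be technical.

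Immediate early genes are transcribed within minutes of a stimulus from factors already present in the cell, without new protein synthesis. ERK signaling acts on many of them through ETS factors and SRF at the serum response element, whose core is the CArG box, and through CREB at the cAMP response element (CRE). FOS and JUN proteins pair as AP-1, EGR1 binds GC-rich sites, and their mRNAs are short-lived. The DUSP phosphatases close the loop: nuclear DUSP1 acts on JNK, p38 and ERK, and cytoplasmic DUSP6 acts mainly on ERK.

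The overexpressed gene did not follow the NVR label. *FGGY* (chr1:59296638-59810647, plus strand) stood at 274 to 312 CPM (counts per 1000000 counts on genes, scaled by the trimmed mean of M values) in the L1_F_DMSO libraries and at 267 to 362 CPM after ML355, against 2.99 to 3.83 CPM in CTRL_DMSO and 3.81 to 4.83 CPM in the libraries labelled NVR. Squamous markers were low throughout: of 8, *KRT6A* and *DSG3* were at 0 in all 12 libraries, and the summed level was 1.46 to 1.61 CPM in L1_F_DMSO, 1.70 to 3.68 after ML355, 18.8 to 23.4 in CTRL_DMSO and 10.2 to 18.3 in the libraries labelled NVR. Of the 4 squamous markers tested, 3 were lower in L1_F_DMSO than in CTRL_DMSO and 1 was higher (log2 fold change 6.07). *SOX2* had no count in any of the 6 libraries with high *FGGY*, which at 3 counts allows at most 0.172 CPM in a library, and averaged 16.0 CPM in CTRL_DMSO. The sum of 6 fibroblast markers ran the other way, from 341 to 360 CPM in L1_F_DMSO and 112 to 122 after ML355 to 20.4 to 25.7 in CTRL_DMSO and 19.7 to 22.4 in the libraries labelled NVR. The sum of 4 endothelial markers was 8.89 to 9.41 CPM in L1_F_DMSO against 0.257 to 0.690 after ML355, 0.422 to 0.626 in CTRL_DMSO and 0.384 to 0.701 in the libraries labelled NVR. The sum of 5 leukocyte markers was 3.33 to 4.47, 2.71 to 3.86, 3.26 to 4.65 and 9.22 to 12.7 CPM in the same order of groups. The like sums in L1_F_DMSO and CTRL_DMSO join markers that ran opposite ways. Of the 3 tested, 2 were higher in L1_F_DMSO than in CTRL_DMSO and 1, *CD14*, was lower (log2 fold change -1.92). *CD14* alone averaged 11.1 CPM in the libraries labelled NVR. Total counts per library were 16242082 to 27004768.

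The DNA before the start sites was searched for such elements, and only some of the genes had them. The stretches below hold all CArG boxes found before *EGR1*, *FOS* and *FOSB* and the full CREs of *FOSB* and *DUSP1*. A further TGACG core lies nearer the start of *FOS* and of *FOSB*, outside the stretches. They are RefSeq sequence of GRCh38.p14, 5′ to 3′ on the strand of the gene. Capitals mark the CArG boxes and, in the first stretch, the ETS sites, and in the others the full CREs or their TGACG core (CGTCA on the other strand).
*EGR1* distal, chr5:138465049-138465129, plus strand, 430 to 350 bases before the start: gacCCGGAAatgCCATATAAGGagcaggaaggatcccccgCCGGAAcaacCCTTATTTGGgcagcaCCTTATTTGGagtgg
*EGR1* proximal, chr5:138465339-138465422, plus strand, 140 to 57 bases before the start: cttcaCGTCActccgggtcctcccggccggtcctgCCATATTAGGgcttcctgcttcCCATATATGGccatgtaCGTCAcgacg
*FOS*, chr14:75278478-75278538, plus strand, 350 to 290 bases before the start: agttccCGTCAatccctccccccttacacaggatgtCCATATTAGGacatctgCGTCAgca
*FOSB*, chr19:45467666-45467746, plus strand, 330 to 250 bases before the start: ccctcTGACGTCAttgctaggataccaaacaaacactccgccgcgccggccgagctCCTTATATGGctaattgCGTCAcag
*DUSP1*, chr5:172771295-172771375, minus strand, 180 to 100 bases before the start: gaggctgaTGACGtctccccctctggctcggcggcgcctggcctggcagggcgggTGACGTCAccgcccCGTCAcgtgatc

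The promoter table held 8 of the 10 genes, and both strands of the 500 bases before each start were searched. The CArG box (CC, then 6 bases of A or T, then GG) occurred 5 times before *EGR1* and 1 time each before *FOS* and *FOSB*, and in 2.43% of all 35116 promoters. The full CRE (TGACGTCA, which contains the TGACG core on both strands) lay before *FOSB* and *DUSP1* and in 1.98% of promoters. The TGACG core alone or within it lay before 7 of the 8 genes, all but *DUSP6*, and in 31.5% of promoters. The ETS site (CCGGAA) was found 3 times before *EGR1* and 1 time each before *FOSB* and *IER2* (20.3% of promoters), the TATA box (TATAAA) before *FOS*, *FOSB*, *JUNB* and *DUSP1* (21.2%), and the EGR site (GCGNGGGCG) before *EGR1* and *FOSB* (11.2%). The AP-1 site (TGANTCA, in 11.9% of promoters) matched before none of the 8, and *DUSP6* had no match to any of the motifs in this window. These are matches of letters, not measured binding.

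**Figure D1:**
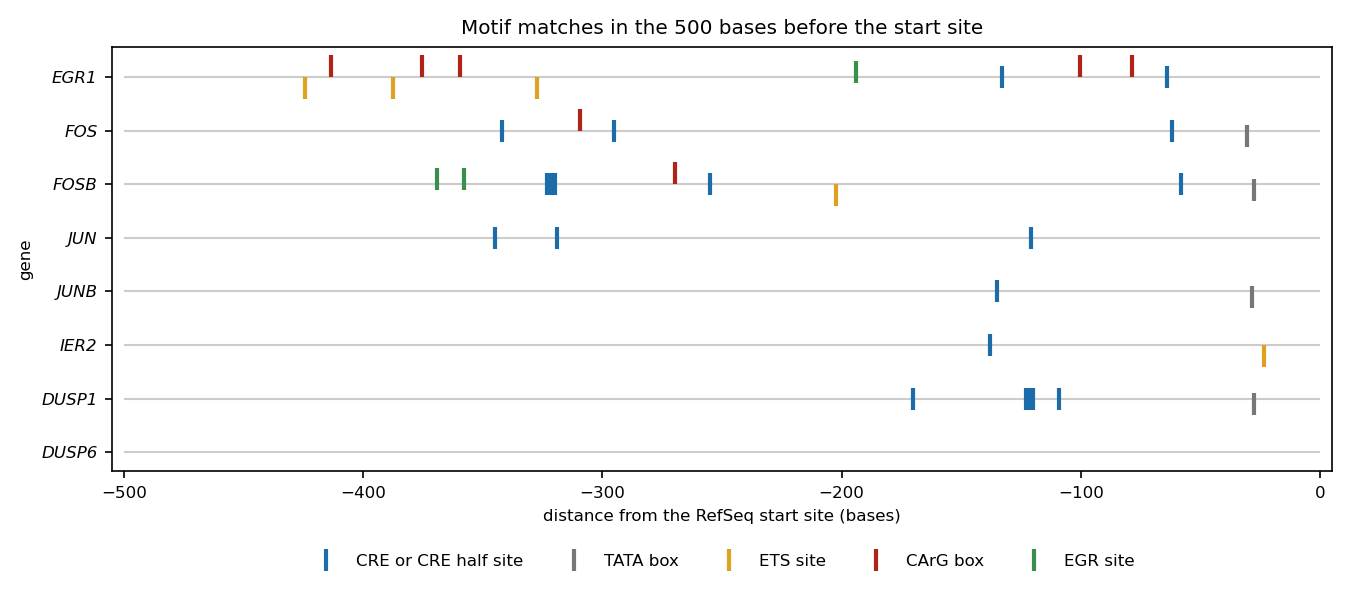
Position of motif matches in the 500 bases before the RefSeq start site of 8 genes (horizontal axis, distance from the start in bases; each tick is a match, colored by motif). *EGR1* has a distal cluster of 3 CArG boxes and a proximal pair, *FOS* and *FOSB* have 1 each, and the row of *DUSP6* is empty.

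*EGR1* (ENSG00000120738, chr5:138465479-138469303) had the widest range of the 10. The L1_F_DMSO libraries held 15, 12 and 12 counts, or 0.860, 0.631 and 0.605 CPM. After ML355 the level was 98.8, 347 and 211 CPM in replicates 1, 2 and 3, and the CTRL_DMSO libraries stood at 275, 338 and 338 CPM. The libraries labelled NVR held 301, 395 and 227 CPM. The L1_F_DMSO libraries were therefore the only ones with next to no *EGR1* mRNA, and the ranges of the other 3 groups overlapped. The spread was unequal, with a coefficient of variation of 56.7% after ML355, 27.3% in the libraries labelled NVR and 11.6% in CTRL_DMSO (n = 3 each).

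*EGR3*, a related factor whose mRNA follows the same stimuli in many cells, was scarce. It had 2, 1 and 0 counts in L1_F_DMSO, 0, 5 and 2 after ML355, 16, 33 and 48 in CTRL_DMSO and 63, 90 and 43 in the libraries labelled NVR. Unlike *EGR1*, it was therefore still near the floor of 3 counts after ML355, below every CTRL_DMSO library.

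*FOS* (ENSG00000170345, chr14:75278826-75282230), the founding partner of JUN in AP-1, was at 3.84, 4.63 and 5.04 CPM in L1_F_DMSO, and ML355 libraries held 35.0, 57.4 and 49.5 CPM. The CTRL_DMSO libraries were close to each other at 227, 229 and 233 CPM, and those labelled NVR held 384, 429 and 324 CPM. No pair of groups overlapped: *FOS* was lowest in L1_F_DMSO, intermediate after ML355 and highest under the NVR label. *FOSB* (ENSG00000125740, chr19:45467995-45475179), a second FOS protein with similar DNA binding, kept the same order at lower levels, with 3.04, 2.63 and 3.07 CPM in L1_F_DMSO, 11.5, 21.8 and 12.8 after ML355, 104, 114 and 125 in CTRL_DMSO and 148, 166 and 140 in the libraries labelled NVR. Its span overlaps *ERCC1* on the other strand, and whether reads were counted by strand is not given in the sources used here.

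*FOSL1* (ENSG00000175592, chr11:65892049-65900573) encodes FRA1, a FOS protein without the strong activation domain of FOS that is induced later and lasts longer. It broke the order of its family: 22.7, 22.9 and 28.3 CPM in L1_F_DMSO, 47.1, 80.4 and 59.5 after ML355, 136, 121 and 113 in CTRL_DMSO, and only 47.0, 42.8 and 49.9 in the libraries labelled NVR. The NVR-labelled range thus lay below all CTRL_DMSO libraries, where *FOS* and *FOSB* lay above them.

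*JUN* (ENSG00000177606, chr1:58776845-58784048), the main DNA-binding partner in AP-1 and a target of JNK, was at 39.3, 39.6 and 42.0 CPM in L1_F_DMSO and at 442, 297 and 450 CPM after ML355. It stood at 394, 425 and 404 CPM in CTRL_DMSO and 283, 301 and 254 CPM in the libraries labelled NVR. *JUN* after ML355 spanned the CTRL_DMSO range, and the NVR-labelled libraries lay below that range. *JUNB* (ENSG00000171223, chr19:12791486-12793315), a weaker activator than JUN that can restrain it, held 85.5, 94.3 and 92.7 CPM in L1_F_DMSO, 368, 389 and 472 after ML355, 400, 347 and 308 in CTRL_DMSO and 685, 594 and 832 in the libraries labelled NVR. So the pair separated in the NVR-labelled libraries, *JUN* below the controls and *JUNB* above. The span of *JUNB* overlaps *HOOK2* on the other strand.

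*IER2* (ENSG00000160888, chr19:13150411-13154911), a small nuclear protein gene induced with *FOS*, was at 41.4, 43.1 and 41.8 CPM in L1_F_DMSO, 67.2, 114 and 109 after ML355, 123, 89.2 and 83.3 in CTRL_DMSO and 210, 148 and 304 in the libraries labelled NVR. The ML355 and CTRL_DMSO ranges overlapped, with L1_F_DMSO below and the NVR-labelled libraries above both.

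*DUSP1* (ENSG00000120129, chr5:172768096-172771195), the inducible nuclear phosphatase of JNK and p38, was at 309, 285 and 274 CPM in L1_F_DMSO and at 1865, 786 and 1805 CPM after ML355. It held 654, 691 and 655 CPM in CTRL_DMSO and 709, 805 and 583 CPM in the libraries labelled NVR. It was the only one of the 10 for which every ML355 library lay above every CTRL_DMSO library. *DUSP6* (ENSG00000139318, chr12:89347235-89352501), whose mRNA is widely used as a readout of ERK activity, did not follow the early genes: 20.1, 20.5 and 18.5 CPM in L1_F_DMSO, 12.7, 38.5 and 14.5 after ML355, 17.8, 15.5 and 15.2 in CTRL_DMSO and 40.1, 43.0 and 37.5 in the libraries labelled NVR. Here the L1_F_DMSO libraries were slightly above the controls, and the NVR-labelled group was about level with a single ML355 library, replicate 2.

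**Figure D2:**
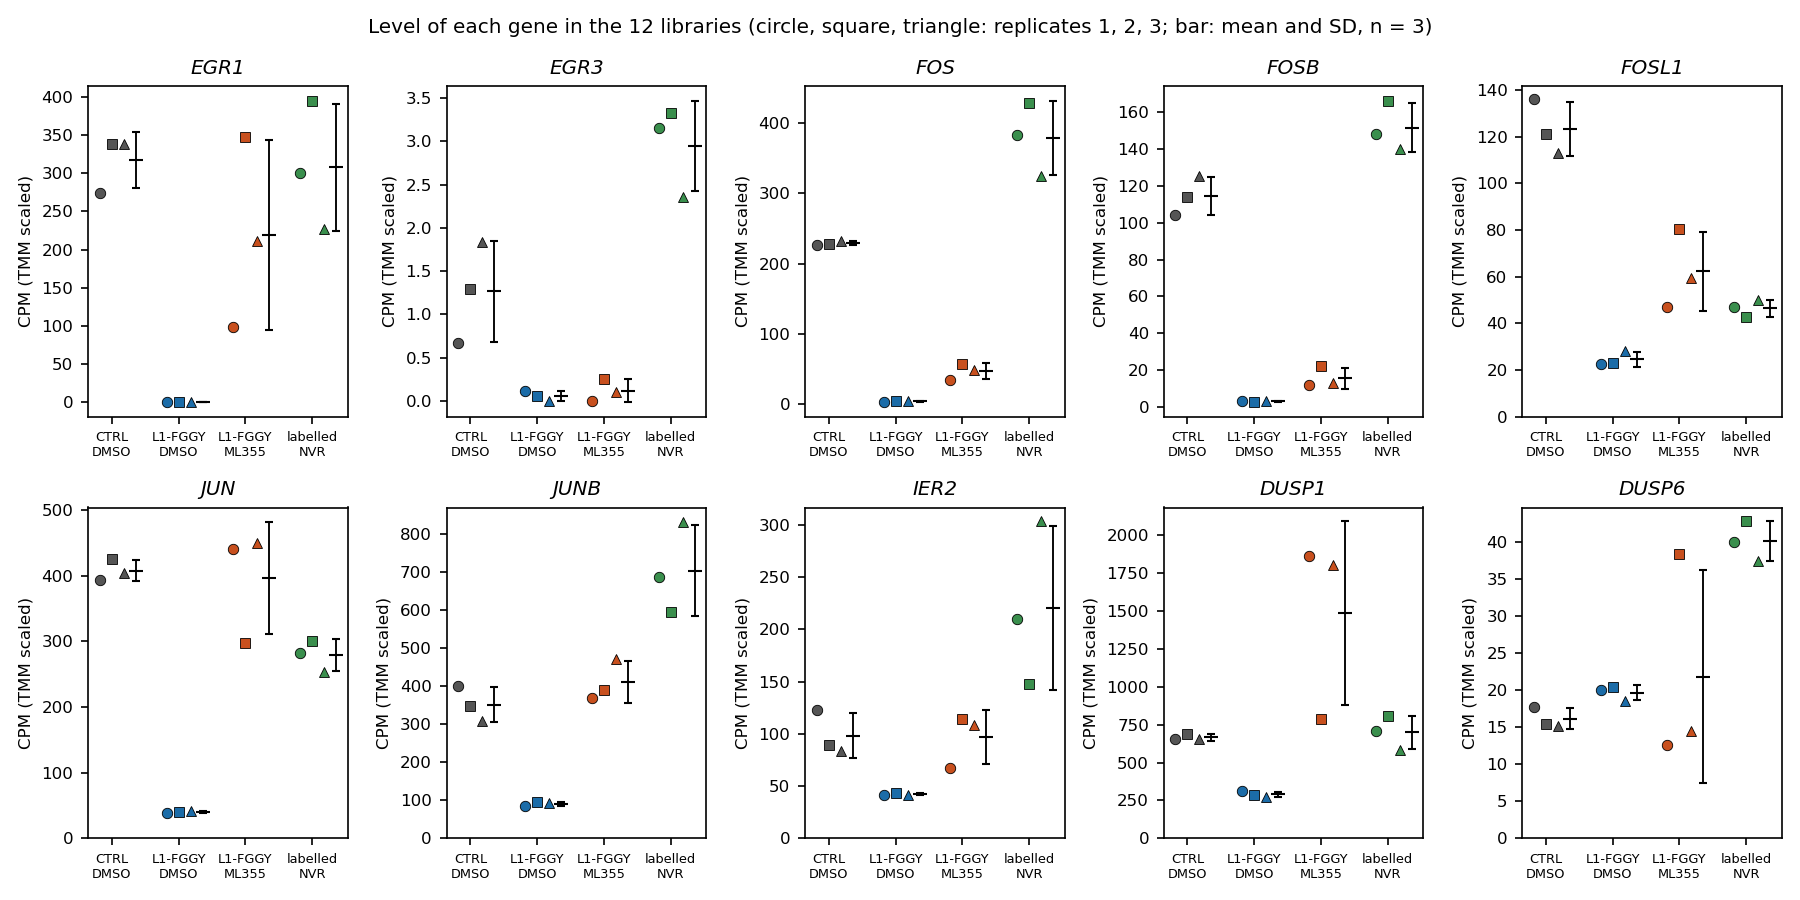
Level of each of the 10 genes (vertical axis, CPM on a linear scale) in the 12 libraries by group (horizontal axis), with the mean and SD of 3 libraries. The L1-FGGY DMSO points lie lowest for 8 of the 10 genes, *EGR1* goes from below 1 CPM to 98.8 to 347 CPM after ML355, and *DUSP6* of ML355 replicate 2 stands apart from the other ML355 libraries.

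Replicate 2 of the ML355 group stood apart from the other 2 in this gene group. It had the highest *EGR1*, *FOS*, *FOSB*, *FOSL1*, *IER2* and *DUSP6* and the lowest *JUN* and *DUSP1* of the 3. The summed level of 11 stress response genes was 2877 CPM in it against 4699 and 4700 CPM in replicates 1 and 3, and mitochondrially encoded mRNAs took 0.828% of its counts against 0.719% and 0.637%. The part of either in these levels was not tested.

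Levels of different genes were compared per kilobase of exon (CPM per kb). In CTRL_DMSO the order was *DUSP1* (331 ± 10.5, SD, n = 3), *JUNB* (192 ± 25.2), *JUN* (113 ± 4.42), *EGR1* (101 ± 11.7), *FOS* (72.0 ± 0.877), *FOSL1* (65.4 ± 6.16), *IER2* (31.9 ± 6.88), *FOSB* (20.6 ± 1.86), *DUSP6* (4.19 ± 0.366) and *EGR3* (0.252 ± 0.116). *JUN* and *EGR1* differed by less than the SD of *EGR1*, and *FOSL1* varied up to the level of *FOS*. In L1_F_DMSO, *DUSP1* (144 ± 9.08 CPM per kb) and *JUNB* (49.7 ± 2.57) still led, but *EGR1* stood in the ninth place (0.223 ± 0.0448), behind *DUSP6* (5.10 ± 0.263), *FOS* (1.41 ± 0.191) and *FOSB* (0.525 ± 0.0445). After ML355 *EGR1* (69.8 ± 39.6 CPM per kb) again followed *DUSP1* (738 ± 301), *JUNB* (224 ± 30.0) and *JUN* (109 ± 23.6), and its gap to *JUN* was no larger than its own SD. In the libraries labelled NVR *JUNB* (384 ± 65.6) and *DUSP1* (347 ± 55.1) headed the order within 1 SD of each other, and *FOS* (119 ± 16.5) came next, ahead of *EGR1* (98.0 ± 26.7) and *JUN* (77.1 ± 6.55).

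The tested comparison set the libraries labelled NVR against CTRL_DMSO, groups with like *FGGY* levels (log2 fold change 0.31, SE 0.16, edgeR adjusted p = 0.13). By the labels these groups differ in both the construct and the drug. An effect of either and a difference between the cell populations cannot be told apart, so a rise or fall here is not a measured response to NVR. *FOS*, *JUNB*, *IER2* and *DUSP6* rose and *FOSL1* and *JUN* fell, at an adjusted p under 0.01 from edgeR's quasi-likelihood test over all genes. That is 4 of 10 higher and 2 of 10 lower, where 14.5% of all tested genes were called higher and 15.3% lower. Over all genes these were 2593 higher and 2723 lower, or 1825 and 3208 with libraries scaled by their totals alone. The SE of a log2 fold change was taken as its size divided by the square root of the F statistic. Each SE, interval and call rests on a spread fitted over all 12 libraries, the ML355 libraries among them.

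The largest rise was that of *DUSP6*, with a log2 fold change of 1.31 (SE 0.28, edgeR adjusted p = 0.0016) and all 3 NVR-labelled libraries above all 3 controls. It was no longer called without CTRL_DMSO replicate 2 (edgeR adjusted p = 0.013), CTRL_DMSO replicate 3 (0.016) or NVR-labelled replicate 2 (0.016). Its log2 fold change stayed between 1.27 and 1.39 over all 6 such fits. The coefficient of variation of *DUSP6* was 65.9% after ML355, 8.74% in CTRL_DMSO and 6.75% in the libraries labelled NVR. The SE of *DUSP6* thus takes in the ML355 spread, whose part in the lost calls was not tested. *IER2* rose by 1.16 (SE 0.23, adjusted p = 8.0e-04) and *JUNB* by 1.00 (SE 0.14, adjusted p = 4.9e-05) on the log2 scale. *FOS* rose by 0.72 (SE 0.15, adjusted p = 0.0013), but by 0.58 (adjusted p = 0.018) when libraries were scaled by their totals alone, a scaling that moved the median of all genes to -0.15.

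*FOSL1* fell by 1.41 on the log2 scale (SE 0.16, edgeR adjusted p = 6.1e-06), the largest change of either sign among the 10, and all 3 NVR-labelled libraries were below all controls. *JUN* fell by 0.55 (SE 0.14, adjusted p = 0.0046). This call was lost without CTRL_DMSO replicate 2 (edgeR adjusted p = 0.021) or replicate 3 (0.013) and without NVR-labelled replicate 1 (0.017) or replicate 3 (0.018). The log2 fold changes were -0.60 to -0.47 over the 6 fits. The coefficient of variation of *JUN* was 21.6% after ML355, 3.93% in CTRL_DMSO and 8.50% in the libraries labelled NVR. Within AP-1, then, the components moved apart: *FOS* and *JUNB* up, *FOSL1* and *JUN* down.

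Of the other 4, *EGR3* had a log2 fold change of 1.21 (95% interval 0.39 to 2.04, edgeR adjusted p = 0.029) and *FOSB* one of 0.40 (0.07 to 0.74, adjusted p = 0.066), both with every NVR-labelled library above every control. *EGR1* differed by -0.04 (-0.63 to 0.54, adjusted p = 0.93) and *DUSP1* by 0.07 (-0.38 to 0.52, adjusted p = 0.84). Neither interval is narrow enough to show equal levels, and both take in the spread of the ML355 libraries. The coefficient of variation of *EGR1* was 56.7% after ML355, 11.6% in CTRL_DMSO and 27.3% in the libraries labelled NVR. That of *DUSP1* was 40.8%, 3.18% and 15.9% in the same order. Mitochondrially encoded mRNAs took 3.64% to 3.88% of counts in CTRL_DMSO and 4.73% to 5.34% in the libraries labelled NVR, and the stress list summed to 1524 to 2017 and 1990 to 3178 CPM. Their part in these differences was not tested, and in bulk RNA fewer cells with an mRNA and less of it per cell cannot be told apart.

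**Figure D3:**
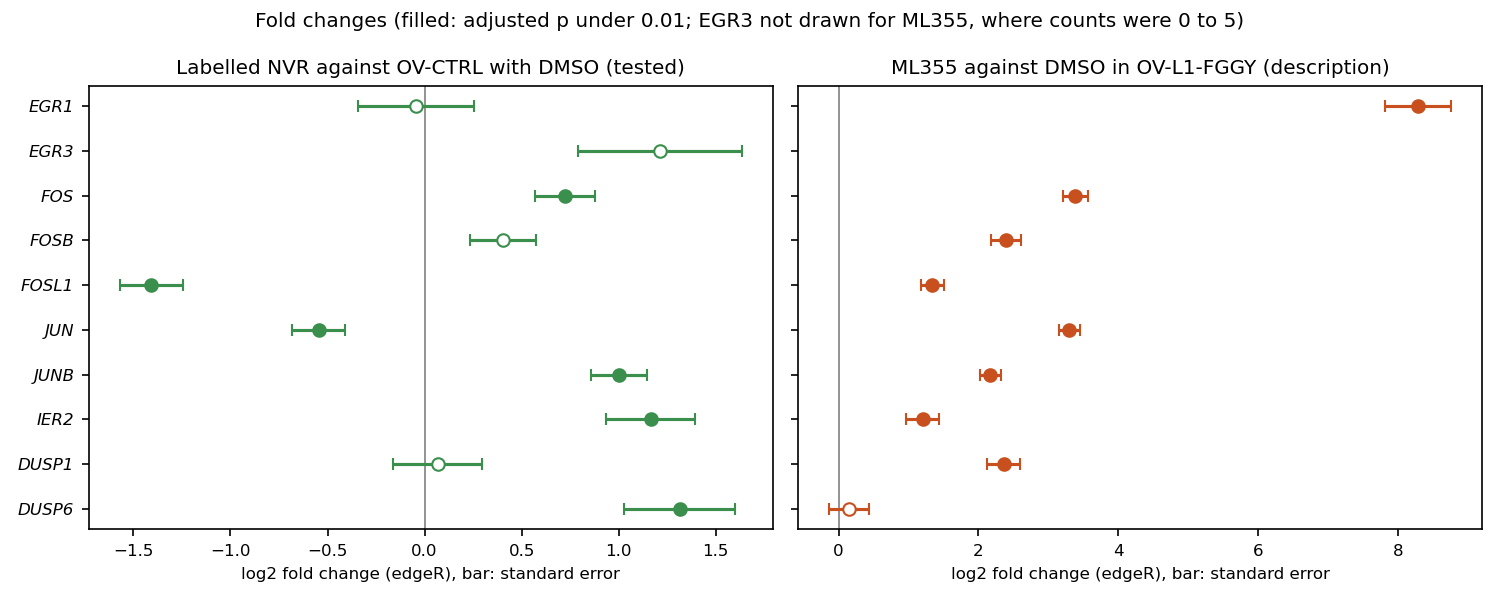
Log2 fold change with its standard error (horizontal axis) for each gene (vertical axis) in the libraries labelled NVR against CTRL_DMSO (left, tested) and after ML355 against DMSO in OV-L1-FGGY cells (right, description), filled where the edgeR adjusted p was under 0.01. On the left *FOSL1* and *JUN* lie below 0 and *FOS*, *JUNB*, *IER2* and *DUSP6* above it, and on the right *EGR1* at 8.29 lies far beyond the others.

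ML355 against DMSO in OV-L1-FGGY cells is the comparison the 10 genes were chosen on. The log2 fold change was 8.29 (SE 0.47) for *EGR1*, 3.39 (SE 0.18) for *FOS*, 3.30 (SE 0.15) for *JUN*, 2.40 (SE 0.22) for *FOSB*, 2.36 (SE 0.24) for *DUSP1*, 2.17 (SE 0.15) for *JUNB*, 1.34 (SE 0.17) for *FOSL1* and 1.20 (SE 0.23) for *IER2*. For these 8 of the 10 every ML355 library lay above every DMSO library and the adjusted p was under 0.01, which the choice of the genes favours and which is no test of them. Over all genes 21.3% were called higher, 23.5% lower, and 30.0% did not overlap in the higher direction. The ranges of *DUSP6* and *EGR3* overlapped. *DUSP6* had a log2 fold change of 0.15 (SE 0.29) with all libraries and -0.54 without ML355 replicate 2, where it was called lower.

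Set against CTRL_DMSO, the mean level after ML355 differed from gene to gene. *EGR1* stood at 69.1% of the control mean, *JUN* at 97.2%, *JUNB* at 117%, *IER2* at 98.4% and *DUSP6* at 135%, all with overlapping ranges. *FOSL1* was at 50.5%, *FOS* at 20.6%, *FOSB* at 13.4% and *EGR3* at 9.53%, below all control libraries, and *DUSP1* at 223%, above them. The ML355 libraries also differed from L1_F_DMSO in mitochondrially encoded mRNAs, at 0.637% to 0.828% of counts against 5.39% to 6.09% in L1_F_DMSO, and in the stress list, at 2877 to 4700 CPM against 1203 to 1242 CPM. Their part in the early gene levels was not tested.

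L1_F_DMSO against CTRL_DMSO shares its L1_F_DMSO libraries with the ML355 comparison. The log2 fold change was -8.82 (SE 0.48) for *EGR1*, -5.67 (SE 0.20) for *FOS*, -5.29 (SE 0.22) for *FOSB*, -3.34 (SE 0.15) for *JUN*, -2.32 (SE 0.17) for *FOSL1*, -1.95 (SE 0.15) for *JUNB*, -1.22 (SE 0.23) for *IER2* and -1.20 (SE 0.23) for *DUSP1*. *EGR3* had 3 counts against 97 over the 3 libraries, a ratio of 24.1 after scaling for depth (95% counting interval 8.02 to 119). *EGR3* passed the filter on low counts only through the CTRL_DMSO and NVR-labelled libraries, and is left out of the count. Of the other 9, 8 were under the threshold and below every control library, a description that rests on the L1_F_DMSO libraries the genes were chosen on. Over all genes 36.2% were called lower, 32.5% higher, and 43.0% did not overlap in the lower direction. *DUSP6* was at 0.28 (SE 0.29). The lineage markers differ between the same groups (*SOX2* and the fibroblast and endothelial lists above), so effects of L1-FGGY and differences between the cell populations cannot be told apart.

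The libraries labelled NVR against L1_F_DMSO, the pair the labels imply, also share L1_F_DMSO. With *EGR3* left out for the same reason, the other 9 had an adjusted p under 0.01 in the higher direction, again as a description, where 38.2% of all genes were called higher and 35.4% lower. The log2 fold change was 8.78 for *EGR1*, 6.39 for *FOS*, 5.70 for *FOSB*, 2.95 for *JUNB*, 2.79 for *JUN*, 2.39 for *IER2*, 1.27 for *DUSP1*, 1.03 for *DUSP6* and 0.92 for *FOSL1*. *EGR3* had 196 counts against 3, a ratio of 56.4 after scaling for depth (95% counting interval 19.0 to 276). *DUSP6* was called with all libraries but in none of the 6 fits that left 1 library out, at log2 fold changes of 0.97 to 1.08. Nor was it called when libraries were scaled by their totals alone (0.79). Here too the fitted spread of *DUSP6* takes in the ML355 libraries. *FGGY* had a log2 fold change of -6.08 in the same comparison, so an effect of NVR and the difference in *FGGY* and lineage markers cannot be told apart.

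Other genes of the same circuit were listed by role. Earlier results of these data were known when the lists were made, so their counts are a description. Of 35 other immediate early genes, 34 were tested. Against CTRL_DMSO, 10 rose and 9 fell in the libraries labelled NVR, where 14.5% of all genes rose and 15.3% fell. The median log2 fold change was 0.22, against 0.00 over all genes and 0.56 over the 10 members. *NR4A2*, an orphan nuclear receptor, rose from 11.4 ± 1.68 to 68.4 ± 9.97 CPM (log2 fold change 2.58), and *ID1*, an inhibitor of bHLH factors, by 1.93. After ML355 23 rose and 5 fell (median 1.27, members 2.27, all genes 0.00), where 21.3% of all genes rose and 23.5% fell. Among those that rose were *PPP1R15A*, the phosphatase subunit that reverses eIF2α phosphorylation, at 4.11, and *ZFP36*, which promotes decay of AU-rich mRNAs, at 3.83. In L1_F_DMSO against CTRL_DMSO 6 were higher and 16 lower (median -0.55, members -2.83, all genes -0.11), where 32.5% of all genes were higher and 36.2% lower. *SIK1*, a salt-inducible kinase, was at 4.20 and *ZFP36* at -3.25. Against L1_F_DMSO, the NVR-labelled libraries had 19 higher and 6 lower (median 0.57, members 2.87, all genes 0.08), where 38.2% of all genes were higher and 35.4% lower. The member medians include *EGR3*, which passed the filter only through the CTRL_DMSO and NVR-labelled libraries.

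The other 9 MAP kinase phosphatases are few, and their counts are given beside the shares over all genes. Against CTRL_DMSO, 1 rose and 3 fell in the libraries labelled NVR (14.5% and 15.3% over all genes), with *DUSP5*, a nuclear ERK phosphatase, at 0.57 and *DUSP8* at -1.73. After ML355 4 rose and 3 fell (21.3% and 23.5%), with *DUSP2* at 2.34, *DUSP5* at 2.25 and *DUSP8* at 1.70. In L1_F_DMSO against CTRL_DMSO 6 were higher and 1 lower (32.5% and 36.2%), and *DUSP2* (8.19 ± 1.25 against 0.134 ± 0.0498 CPM), *DUSP9* (log2 fold change 3.41) and *DUSP10* (2.63) led. Against L1_F_DMSO, the NVR-labelled libraries had 1 of the 9 higher and 6 lower (38.2% and 35.4%).

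For genes downstream and upstream of ERK, the shares over all genes to set beside the counts are again 14.5% higher and 15.3% lower under the NVR label and 21.3% and 23.5% after ML355. Of 10 ERK output genes, 1 rose (*PHLDA1*, 0.66) and 1 fell (*EPHA2*, -0.65) in the libraries labelled NVR against CTRL_DMSO, and 3 rose and 3 fell after ML355, with *CCND1*, the cyclin D1 gene, at -0.93. The medians of this list were -0.15 and -0.05. Of 12 other feedback inhibitors of receptor and RAS signaling 2 rose and 1 fell under the NVR label, where *ERRFI1*, an inhibitor of EGFR, was at -1.23, and 3 rose and 2 fell after ML355, where it was at 1.05. Of 19 core genes from RAS to ERK 4 rose and 6 fell under the NVR label, with *RPS6KA2* at 3.33 and *EGFR* at -1.11. After ML355 2 rose and 4 fell, with *SOS1* at -1.15 and *BRAF* at 0.95. Of 14 JNK and p38 pathway genes 2 rose and 1 fell, and 2 rose and 5 fell after ML355, with *MAP2K6*, a p38 kinase kinase, at -2.10.

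Regulators of the members' own transcription and decay were counted as well. The shares over all genes are again 14.5% higher and 15.3% lower under the NVR label. After ML355 they are 21.3% and 23.5%. Some of the counts below lie near these shares. Of 16 tested SRF partners and cytoskeletal SRF targets, 1 rose and 8 fell in the libraries labelled NVR against CTRL_DMSO (median -0.44), with *TPM1* at -1.64 and *VCL* at -0.92, and 7 rose and 3 fell after ML355 (median 0.26). Of 13 tested EGR corepressors and AP-1 partners, 2 rose and 4 fell, and 4 rose and 1 fell after ML355, with *NAB2*, which binds and restrains EGR1, at 1.59. *NAB2* was at 13.9 ± 2.22 CPM in L1_F_DMSO and 90.2 ± 0.982 CPM in CTRL_DMSO. Of 10 factors of AU-rich mRNA decay and stability, 0 rose and 6 fell under the NVR label (median -0.54), with *HNRNPD* at -0.82, and 2 rose and 1 fell after ML355. Of 11 stress response genes, 3 rose and 2 fell under the NVR label, with *CDKN1A* at 1.48, and 8 rose and 0 fell after ML355 (median 2.58), with *DDIT3* at 5.60 and *GADD45A* at 4.47. All 13 mitochondrially encoded mRNAs fell after ML355 (median -3.23), and 5 rose and 0 fell under the NVR label.

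**Figure D4:**
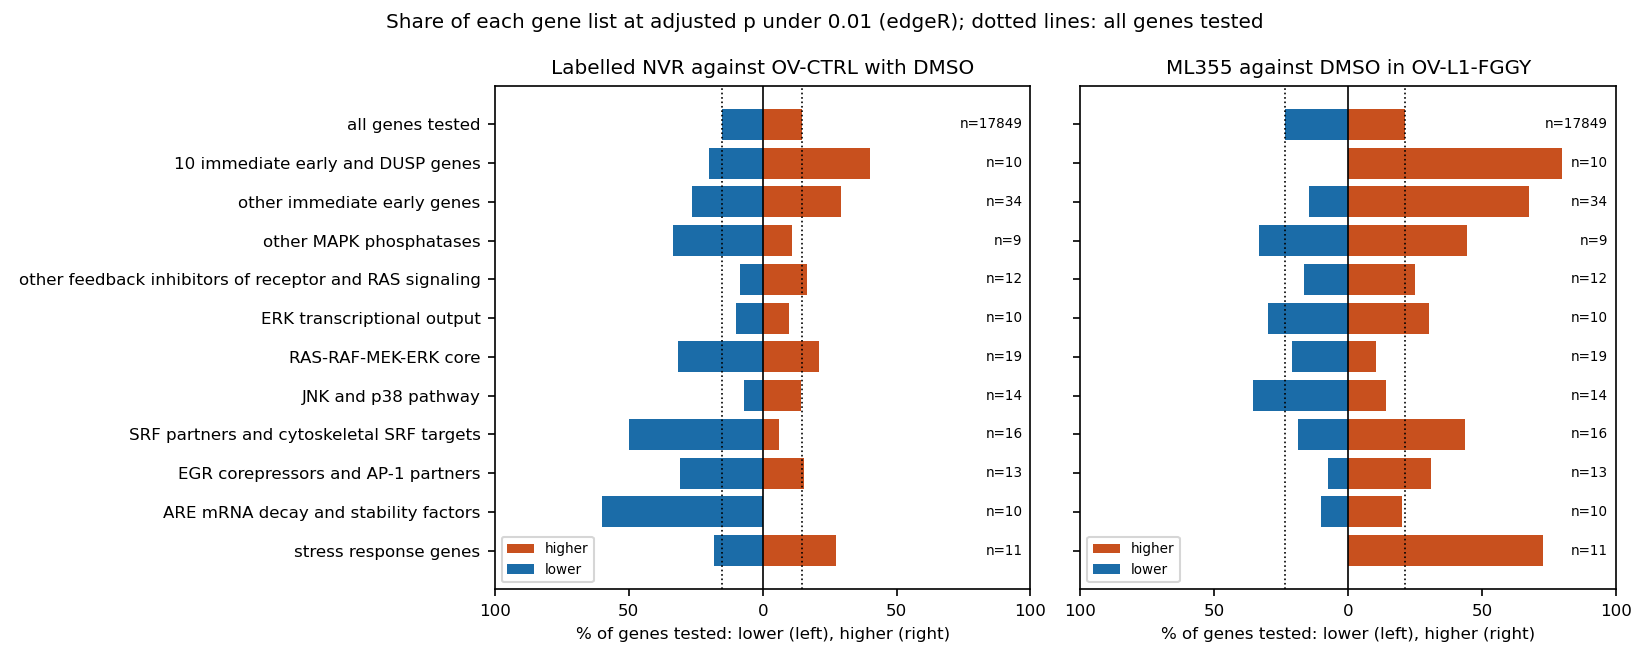
Share of the tested genes of each list (vertical axis) that was called lower (bars to the left) or higher (bars to the right), in % (horizontal axis), with the number tested at the right and dotted lines at the shares over all 17849 genes. In the libraries labelled NVR (left) the 10 genes have bars on both sides, and after ML355 (right, the comparison they were chosen on) 8 of 10 are higher, as are 23 of 34 other immediate early genes and 8 of 11 stress genes.

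The genes most like *EGR1* were ranked by the Pearson correlation of log2 CPM over the 12 libraries, among 13841 genes that averaged 1 CPM or more, members left out. The top 5 were *PTX3* (r = 0.986), *UBE2Z* (0.981), *NGLY1* (0.979), *GREB1* (0.978) and *NEAT1* (0.974). The 12 points fall into 4 groups, and the ranking mostly reflects which genes were low in L1_F_DMSO alone: *PTX3* averaged 0.265 CPM there and 7.48 to 9.89 CPM in the other groups, and *NEAT1* 116 CPM there and 771 to 787 CPM elsewhere.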

How the data were processed

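Total RNA was sequenced after Illumina TruSeq preparation. Per the labels and submitters' processing notes, the authors aligned reads with STAR 2.5.3a to hg38 and counted them with HTSeq 0.11.2. The deposited table holds raw counts per Ensembl gene for 12 libraries, with no normalization, and 0 columns of per-sample values were left out. The column names DMSO, NVR, L1_F_DMSO and L1_F_ML355 were matched to the labels, and DMSO to CTRL_DMSO.

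Symbols, positions and exon lengths came from GENCODE release 44, and promoters from RefSeq (GRCh38.p14), whose 35116 entries were all identical to hg38 over 250 bases before the start. Counts were fitted with edgeR 4.0.16 (R 4.3.3; TMM, filterByExpr, robust quasi-likelihood) over all 12 libraries with 4 group means, so that every group shares 1 estimate of the spread. P-values were adjusted by Benjamini-Hochberg over 17849 genes, with a threshold of 0.01. The scripts were tested on simulated data. DESeq2 1.42.0, limma 3.58.1 (voom, as in the study's methods), other scalings, filters and thresholds, a replicate block, fits of 2 groups and leave-one-out fits were the alternatives.

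All 10 members were named, with *FGGY* and the 5 genes most like *EGR1*. For each list and comparison, genes were picked from the up to 3 with the largest change (called, mean of at least 1 CPM). Not all of these were named, so a named gene need not have the largest change of its list. Members and lists were chosen with earlier results of these data known. A count of 3 was taken as the floor of a library, 0.111 to 0.172 CPM. Intervals from counts cover counting error only.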

Additional observations from a re-analysis of the deposited data

How the results depend on the processing

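No log2 fold change of the 10 genes that had passed the threshold changed sign under any alternative. In the libraries labelled NVR against CTRL_DMSO, 130 of the alternative values kept their side of the threshold, 9 lost it and 1 gained it. The count of 4 higher was 3 to 5 over all alternatives and the count of 2 lower was 1 to 2 over the leave-one-out fits, and 1 where a log2 fold change of 1 or more in size was also required. With no filter beyond a count in any library, *DUSP6* was not called (adjusted p = 0.018) and *EGR3* was (0.0084). After ML355, 8 were higher throughout, and the count lower was 0 to 1 over the leave-one-out fits, the 1 being *DUSP6* without ML355 replicate 2. With *EGR3* left out, 8 were lower throughout in L1_F_DMSO against CTRL_DMSO. In the libraries labelled NVR against L1_F_DMSO the number called varied, in part through *DUSP6* as given above. The cause of these changes was not tested.

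The replicate numbers did not pair the libraries: deviations of same-numbered libraries correlated from -0.35 to 0.17. With the replicate block, the NVR-labelled libraries had 4 members higher and 2 lower against CTRL_DMSO. With *EGR3* left out, they had 9 higher against L1_F_DMSO. After ML355 there were 8 higher, and in L1_F_DMSO against CTRL_DMSO 8 lower with *EGR3* left out. These were the same counts as without the block.

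Over all genes, the libraries labelled NVR against CTRL_DMSO gave 2593 higher and 2723 lower, and 1825 higher and 3208 lower when scaled by library totals alone, where the medians of all genes moved to -0.15 (NVR-labelled against CTRL_DMSO) and -0.13 (ML355). Without CTRL_DMSO replicate 2 the counts were 1602 and 1904. *EGR3* rests on few counts in the OV-L1-FGGY libraries, and its fitted values there are not reported.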
